A study of Mus musculus with 12 samples.

Results

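Dorsal root ganglia taken at any of 3 days after a peripheral nerve injury were compared, as a single side, with ganglia of mice that had no injury. The injured side held 9 RNA-seq libraries, 3 each from days 1, 3 and 7, with every day given equal weight, and the other side held 3 naive libraries, so that all 12 libraries of the series were used. All mice were adult male C57BL/6J animals of 9 to 10 weeks, and the labels name no transgene, deletion or drug in any group. Injured mice had spared nerve injury, in which 2 sciatic branches (tibial, common peroneal) are tied and cut under isoflurane while the third, the sural, is kept. The labels do not name the spinal level or the side of the ganglia, nor say if a library holds a single mouse or several, so the tests measure the spread between these libraries. Sham-operated mice were not analysed here, and effects of anaesthesia and surgery cannot be told apart from those of the cut nerve. The comparison asks which transcripts differed from naive in the mean of the 3 days, which a gene near naive on 1 day can also do. Whether all 9 injured libraries lay on the same side of naive is given beside it. A second test asks which transcripts also differed among the 3 injured days.

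The dorsal root ganglion holds the cell bodies of sensory neurons, each wrapped by satellite glia, along with Schwann cells, macrophages, fibroblasts and vessels. When its axon is cut in the nerve, a sensory neuron is known to switch on transcription factors such as Atf3, Jun and Sox11, together with growth-associated proteins, neuropeptides and the cytokine Csf1, and to lower the expression of many receptors and channels. Because the sural branch is spared, a ganglion after this injury holds cut and intact neurons side by side.

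Values are RPKM, that is reads scaled by gene length and by library size, as the authors deposited them. Fold changes are differences of log2(RPKM + 0.5) after scaling between libraries, which understates the change of low genes. Library sizes recovered from the steps between values lay between 13627000 and 17953000 reads, and a single read of a 1 kb gene equalled 0.0557 to 0.0734 RPKM. Replicates of a group correlated across genes with Pearson's r of 0.953 to 0.976. General neuron markers summed to 2817 to 3700 RPKM in naive and 1810 to 3566 RPKM in injured libraries, with all 20 of them above the expression filter, as the labelled tissue requires. Naive replicate 1 and day 7 replicate 1 lay at opposite ends of the second principal component, at 28.5 and -32.9, and the latter had the lowest neuron and myelin marker sums. Skeletal muscle markers summed to 64.5 RPKM in naive replicate 1 and 47.4 RPKM in day 7 replicate 2, against 6.28 to 18.9 RPKM in the other 10 libraries. The part of these differences in the other results was not tested, and counts are also given without those libraries.

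Of 70 tested genes in 4 lists of the axotomy response, 47 rose and none fell, where 3.94% of all genes tested rose. Of the 47, 42 stood above naive in every injured library, as did 421 of the 559 genes called higher. Many of these genes were listed because earlier work reports them as induced. The lists were also drawn up with results of these libraries known, so their direction is no independent evidence. Sprr1a, Atf3, Npy and Gal had the largest rises, with log2 fold changes of 5.41, 4.61, 4.38 and 3.93. Falls were shallower: the largest among annotated genes with separated groups and an average log2 level above 2 were those of Chrna6, a nicotinic receptor subunit, and Vwc2l, a secreted protein with a von Willebrand factor domain, at -1.06 and -1.03. Of 14195 genes tested with limma, 828 (5.83%) differed at an adjusted p under 0.05, of which 559 (3.94%) were higher and 269 (1.90%) lower in injured ganglia. At least 2-fold changes were found in 165 of the higher genes and 5 of the lower ones (Mrgprb5, Gm13446, Chrna6, Mir691 and Vwc2l), and at least 4-fold changes in 26 and 0. Without naive replicate 2 the test called 354 higher and 99 lower genes, without naive replicate 3 it called 341 and 100, and without day 7 replicate 1 it called 668 and 505.

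The groups were fully separated for 940 genes (6.62% of those tested), of which all 9 injured libraries lay above all 3 naive libraries for 555 (3.91%) and below them for 385 (2.71%). Of the 559 genes called higher 421 were separated in this way, as were 207 of the 269 called lower. The median log2 fold change was 0.75 over the higher genes, -0.53 over the lower genes and 0.00 over all genes tested. Genes called lower were more abundant before injury, with a median naive level of 17.2 RPKM against 4.54 RPKM for those called higher and 6.14 RPKM over all. The naive level is itself 1 side of the comparison, and the added 0.5 leaves genes low in naive little room to fall. How far the method sets this order was not tested. In bulk tissue, fewer cells of a type and less RNA per cell cannot be told apart, which holds for every fall given here.

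**Figure D1:**
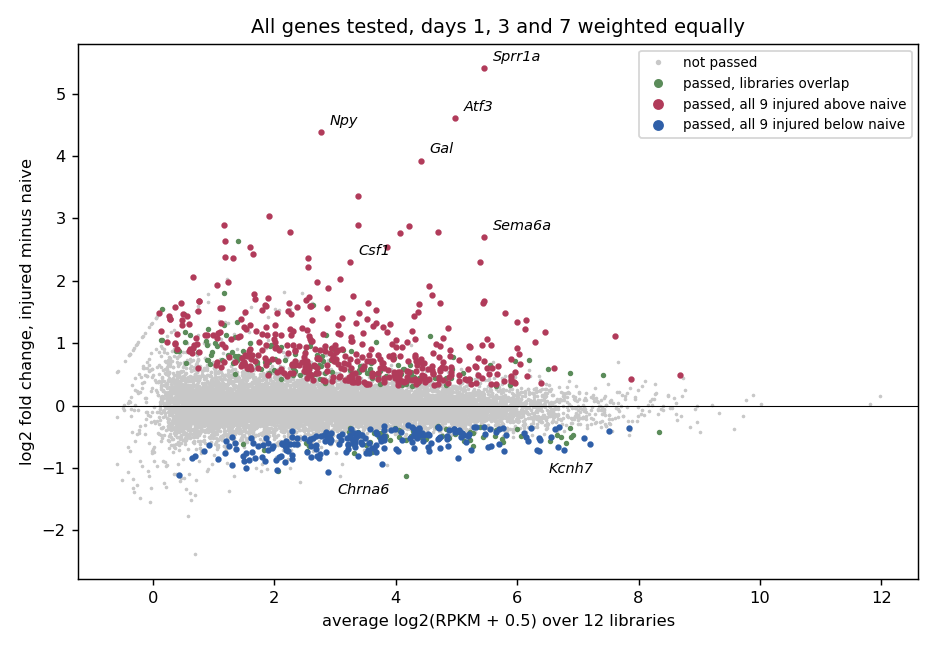
Each point is 1 of the 14195 genes tested, with its average log2(RPKM + 0.5) over the 12 libraries on the x axis and its log2 fold change, injured minus naive, on the y axis; coloured points are the 559 genes called higher and the 269 called lower. The rises reach 5.41 (Sprr1a), while no called fall goes below -1.13.

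Atf3, a transcription factor induced by cellular stress and axon damage, was low without injury and abundant in every injured library. Its level was 2.33, 2.38 and 2.37 RPKM in the naive libraries, 72.9, 57.4 and 77.9 RPKM at day 1, 84.1, 104 and 84.1 RPKM at day 3, and 44.1, 70.1 and 53.3 RPKM at day 7. The lowest injured library, day 7 replicate 1, was still far above the highest naive one, and the groups did not overlap. The log2 fold change was 4.61 (SE 0.12, 95% interval 4.36 to 4.86, adjusted p = 1.31e-11). The 3 injured days did not pass the test for a difference among them (adjusted p = 0.0775), with log2 fold changes of 4.61, 4.96 and 4.25 at days 1, 3 and 7. All such day values share the 3 naive libraries.

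Sema6a, a membrane-bound semaphorin that takes part in axon guidance, rose on each day. It stood at 10.1, 10.9 and 9.69 RPKM in naive libraries, 78.8, 62.9 and 62.7 RPKM at day 1, 89.8, 82.5 and 75.2 RPKM at day 3, and 65.6, 67.8 and 52.0 RPKM at day 7. No injured library came near the naive range. The log2 fold change was 2.70 (SE 0.13, adjusted p = 2.1e-08), with 2.68, 2.92 and 2.5 on the 3 days. The test among days did not pass (adjusted p = 0.557), and the 95% interval of day 3 minus day 1 ran from -0.11 to 0.59.

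Csf1, the growth factor of macrophages and microglia, was low in naive ganglia and higher in all injured ones. It measured 2.16, 2.65 and 2.24 RPKM in naive libraries, 10.7, 8.94 and 10.9 RPKM at day 1, 18.3, 17.4 and 18.6 RPKM at day 3, and 11.9, 15.7 and 14.0 RPKM at day 7. The groups did not overlap, and the 3 day 3 libraries were the highest of all. The log2 fold change was 2.30 (SE 0.10, adjusted p = 1.19e-08), and here the injured days differed (adjusted p = 0.029), with day 3 above day 1 by 0.77 (95% interval 0.49 to 1.04). In a two-sided exact permutation test of the 9 against the 3 libraries, Atf3, Sema6a and Csf1 each gave p = 0.00455, the smallest that the 220 possible assignments can give.

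**Figure D2:**
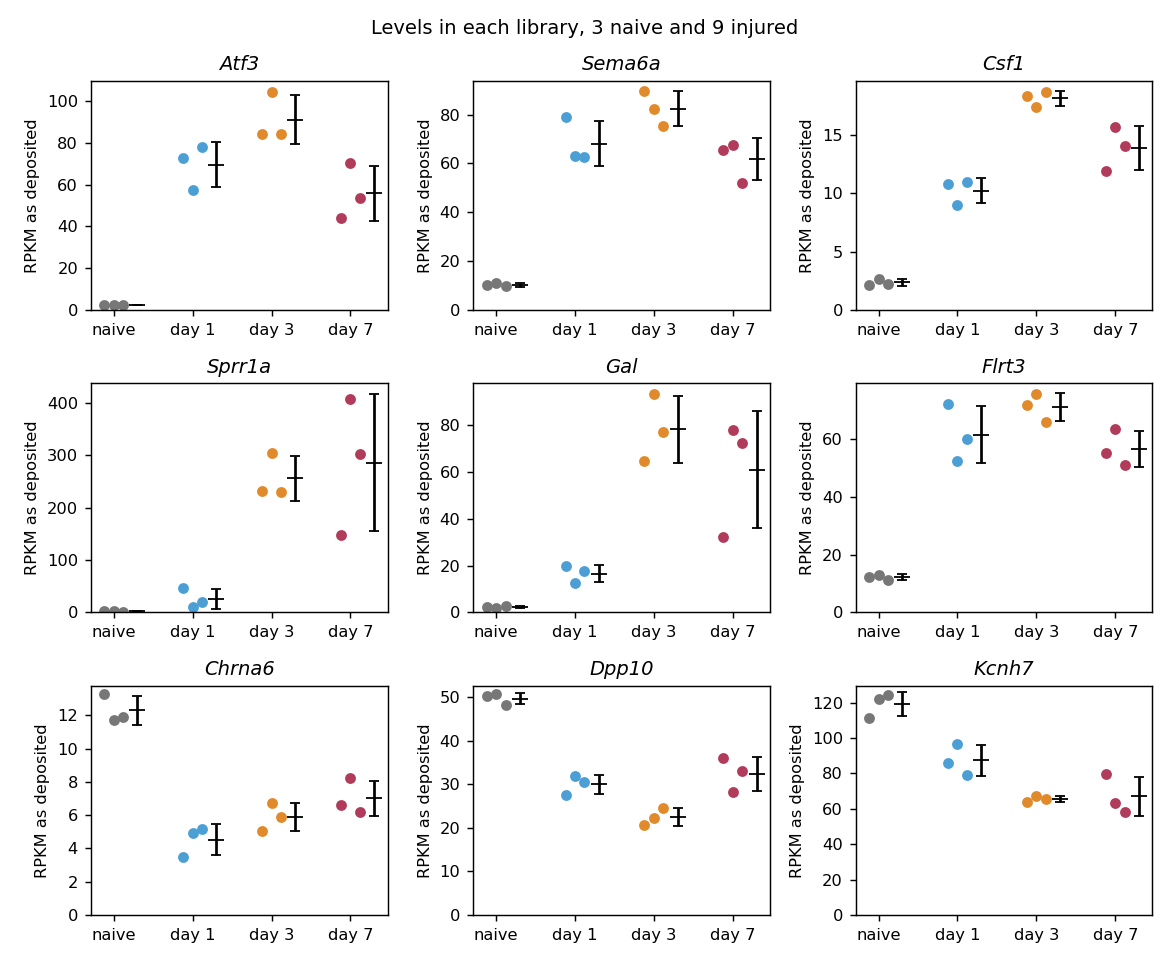
Level of 9 genes in each library, in RPKM as deposited on a linear axis from 0, with 1 point per library and the groups naive, day 1, day 3 and day 7 on the x axis. For Atf3, Sema6a, Csf1, Sprr1a, Gal and Flrt3 all injured points lie above the naive points, and for Chrna6, Dpp10 and Kcnh7 all lie below.

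Promoter windows are shown here for Atf3 and Csf1, 2 of the genes named first, and for Sprr1a, Nts and Pnpla3, whose windows were chosen because they hold a motif searched for. Among the 12 largest rises a motif was in 2 of 10 windows at hand, those of Sprr1a and Nts, and among the 12 largest falls in 1 of 11, that of Pnpla3. Each window spans 250 bases before to 50 bases after the annotated start, from RefSeq on GRCm38.p6, and is written 5′ to 3′ on the strand of the gene. Capitals mark the letters TGANTCA, the binding motif of AP-1 factors, the family of Jun and Fosl2, or TGACGTCA, the cyclic AMP response element bound by the Atf and Creb families. Both motifs were searched on both strands, and neither contains the other. The windows are Atf3 (chr1:191183284-191183583, minus strand), Csf1 (chr3:107760420-107760719, minus strand), Sprr1a (chr3:92485832-92486131, minus strand), Nts (chr10:102490369-102490668, minus strand) and Pnpla3 (chr15:84167566-84167865, plus strand).
Atf3: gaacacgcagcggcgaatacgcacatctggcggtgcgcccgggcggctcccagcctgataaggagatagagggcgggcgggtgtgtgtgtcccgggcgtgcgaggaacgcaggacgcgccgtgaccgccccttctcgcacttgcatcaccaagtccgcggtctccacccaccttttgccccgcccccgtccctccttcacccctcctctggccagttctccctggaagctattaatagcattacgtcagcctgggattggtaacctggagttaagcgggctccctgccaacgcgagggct
Csf1: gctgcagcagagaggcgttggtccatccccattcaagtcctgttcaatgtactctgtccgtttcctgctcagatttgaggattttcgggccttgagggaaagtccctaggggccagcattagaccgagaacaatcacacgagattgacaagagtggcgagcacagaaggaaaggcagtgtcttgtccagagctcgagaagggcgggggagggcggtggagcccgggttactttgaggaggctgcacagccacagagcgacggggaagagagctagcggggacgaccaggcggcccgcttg
Sprr1a: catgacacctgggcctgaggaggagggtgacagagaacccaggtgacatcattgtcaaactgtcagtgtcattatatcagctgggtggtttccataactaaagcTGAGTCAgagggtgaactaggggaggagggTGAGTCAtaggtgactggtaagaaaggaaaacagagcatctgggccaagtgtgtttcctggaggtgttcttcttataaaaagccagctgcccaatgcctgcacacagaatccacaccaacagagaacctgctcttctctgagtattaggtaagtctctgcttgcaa
Nts: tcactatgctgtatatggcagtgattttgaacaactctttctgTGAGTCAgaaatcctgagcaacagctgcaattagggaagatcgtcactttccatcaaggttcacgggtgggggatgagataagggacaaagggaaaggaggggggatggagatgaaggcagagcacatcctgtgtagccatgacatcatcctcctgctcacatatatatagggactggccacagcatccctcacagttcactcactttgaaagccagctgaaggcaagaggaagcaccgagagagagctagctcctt
Pnpla3: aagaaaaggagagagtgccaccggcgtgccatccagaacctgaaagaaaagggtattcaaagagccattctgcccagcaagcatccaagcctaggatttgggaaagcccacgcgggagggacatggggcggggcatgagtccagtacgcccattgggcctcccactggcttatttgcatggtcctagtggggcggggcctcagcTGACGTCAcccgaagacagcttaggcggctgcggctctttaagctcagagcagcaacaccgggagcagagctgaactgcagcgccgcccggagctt

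Sprr1a holds TGAGTCA at 146 and 116 bases before its start, Nts holds it at 207 bases before, and Pnpla3 holds TGACGTCA at 46 bases before. Neither set of letters is in the windows shown for Atf3 and Csf1, which says nothing of a factor at these genes. Windows were at hand for 10233 of the 14195 genes tested, and either motif was in 8.04% of their 13082 windows and in 9.54% of all 32851 windows of the table. Among genes called higher with separated groups it was in 8.87% of 417 windows, from 308 of 421 genes. There the AP-1 letters were in 32 windows (7.67%), against 5.2% for all genes tested and 7.81% of all windows of the table. The cyclic AMP letters were in 6 (1.44%), against 2.94% and 1.79%. A gene can have several windows, and the differences between these shares were not tested. Among genes called lower with separated groups either motif was in 7.76% of 232 windows, from 161 of 207 genes, with the AP-1 letters in 6.03% and the cyclic AMP letters in 1.72%.

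Of 16 tested transcription factors known from axotomised neurons, in a list of 18, 11 rose, none fell and 5 did not pass, where 3.94% of all genes tested rose, and the median log2 fold change was 0.68 against 0.00 over all genes. For 12 of the 16 all injured libraries lay above all naive ones, which held for 3.91% of all genes. Sox11, a factor of axon growth, stood at 3.50, 3.56 and 3.89 RPKM in naive and at 21.1 to 40.7 RPKM (median 32.5) in injured libraries, and rose by 2.88 (SE 0.15, adjusted p = 2.72e-08). Jun, a subunit of AP-1, went from between 7.51 and 11.01 RPKM in naive to between 15.3 and 35.7 RPKM in injured libraries (a difference of 1.43 on the log2 scale, SE 0.14, adjusted p = 1.77e-05). Fosl2, another AP-1 subunit, rose by 1.37 (SE 0.13) from a naive range of 2.166 to 2.91 RPKM. None of the 16 passed the test among injured days, which 0.789% of all genes tested did (6 of the 16 at an unadjusted p under 0.05, and 2 with voom), and the list median was 0.78, 0.72 and 0.53 at days 1, 3 and 7.

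Genes of axon growth and adhesion gave the most extreme value of the main fit. Sprr1a, a small proline-rich protein found in regenerating axons, measured 2.12, 3.09 and 1.42 RPKM in naive libraries. It reached 46.5, 9.54 and 19.5 RPKM at day 1, 232, 305 and 230 RPKM at day 3, and 148, 407 and 302 RPKM at day 7. Groups did not overlap, but the day 1 libraries were all below those of days 3 and 7. The pooled log2 fold change of 5.41 (SE 0.43, adjusted p = 6.99e-05) joined 3.02 at day 1 with 6.57 and 6.63 later, and the days differed (adjusted p = 0.0214). Flrt3, an adhesion protein of axon guidance, stood at 11.1 to 13.1 RPKM in naive and 51.1 to 75.6 RPKM in injured libraries, and its rise of 2.30 (SE 0.12, adjusted p = 2.72e-08) was 2.29, 2.47 and 2.14 on the 3 days. Lmo7, a LIM domain protein of cell junctions, rose by 2.54 (SE 0.12), from between 2.85 and 3.94 RPKM in naive to between 12.5 and 34.1 RPKM in injured libraries. Of the 22 genes in the list 14 rose, none fell and 8 did not pass, with a median of 0.99 and all injured libraries above naive for 10. Over all genes tested 3.94% rose, and 3.91% had all injured libraries above naive.

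Secreted factors contained the neuropeptides with the steepest rises. Npy, a neuropeptide that is scarce in uninjured sensory neurons, measured 0.64, 0.11 and 0 RPKM in naive libraries and 4.40 to 32.5 RPKM (median 18.5) in injured ones, and rose by 4.38 (SE 0.23, adjusted p = 1.63e-07). Over the 24 other settings the log2 fold change of Npy ran from 3.6 to 6.2, against 5.2 to 5.8 for Sprr1a. Gal, the peptide galanin, measured 1.79 to 2.64 RPKM in naive and 12.7 to 93.2 RPKM (median 64.7) in injured libraries, and rose by 3.93 (SE 0.20, adjusted p = 1.82e-07). Nts, the peptide neurotensin, went from between 2.52 and 4.67 RPKM in naive to between 6.74 and 66.6 RPKM in injured libraries, a rise of 2.76 (SE 0.23). All 3 peptides were lower at day 1 than at either later day, with days tests at adjusted p = 0.0178, 0.0064 and 0.0064. Adcyap1, the peptide PACAP, showed the other order: it was at 15.7 to 19.4 RPKM in naive libraries, 65.4 to 94.7 RPKM at day 1 and 30.3 to 51.4 RPKM at day 7, and its pooled rise was 1.67 (SE 0.15, adjusted p = 7.16e-06). Fst, the activin antagonist follistatin, rose by 2.78 (SE 0.17) from under 1 RPKM to 3.84 to 12.5 RPKM. Of 12 secreted factors tested in a list of 21, 9 rose, none fell and 3 did not pass, with a median of 1.78. Among injured days 7 of the 12 differed. The shares over all genes tested were 3.94% risen and 0.789% different among days.

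Of 20 genes for receptors, enzymes and signalling proteins of injured neurons 13 rose, none fell and 7 did not pass, where 3.94% of all genes tested rose. Their median was 1.05, and all injured libraries lay above naive for 15, against 3.91% of all genes. Gpr151, an orphan receptor, stood at 0.89 to 1.58 RPKM in naive and 6.04 to 37.7 RPKM (median 20.7) in injured libraries, and rose by 3.36 (SE 0.25, adjusted p = 7.86e-06). Sez6l, a membrane protein related to the seizure gene Sez6, rose by 2.90 (SE 0.12) from between 1.49 and 2.22 RPKM in naive to between 9.14 and 25.5 RPKM in injured libraries. Gadd45a, a growth arrest and DNA damage gene, rose by 2.78 (SE 0.21) from between 4.48 and 7.75 RPKM in naive to between 21.7 and 61.4 RPKM in injured libraries. Cckbr, a cholecystokinin receptor, was at 0.19 to 0.42 RPKM in naive and 1.79 to 7.16 RPKM in injured libraries, a rise of 2.53 (SE 0.16). Cacna2d1, an alpha2delta calcium channel subunit and the target of gabapentin, was abundant from the start, at 104 to 112 RPKM, and rose by 1.12 (SE 0.15, adjusted p = 0.000335) to 146 to 328 RPKM.

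With each gene counted once, 70 of the 81 genes in these 4 lists were tested, and 47 rose and none fell. Over all genes tested 3.94% rose. The median of the 70 was 0.99. Of the 47 risen genes 42 had all 9 injured libraries above naive, as did 421 of the 559 genes called higher. Among injured days 14 of the 47 differed, as did 63 of the 559. Many of these genes were listed because earlier work on nerve injury reports them as induced, and the lists were drawn up with results of these libraries known, so that their direction is no independent evidence. The count of rises was 44 without naive replicate 1 and 51 without day 7 replicate 1. Leaving out both libraries rich in muscle transcripts gave 42, and leaving out both that lay apart on the second component gave 48. Serpinb1a, an inhibitor of serine proteases outside these lists, was among the 5 largest rises of abundant genes, going from between 14.9 and 23.3 RPKM in naive to between 33.2 and 82.6 RPKM in injured libraries, by 1.64 (SE 0.16).

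**Figure D3:**
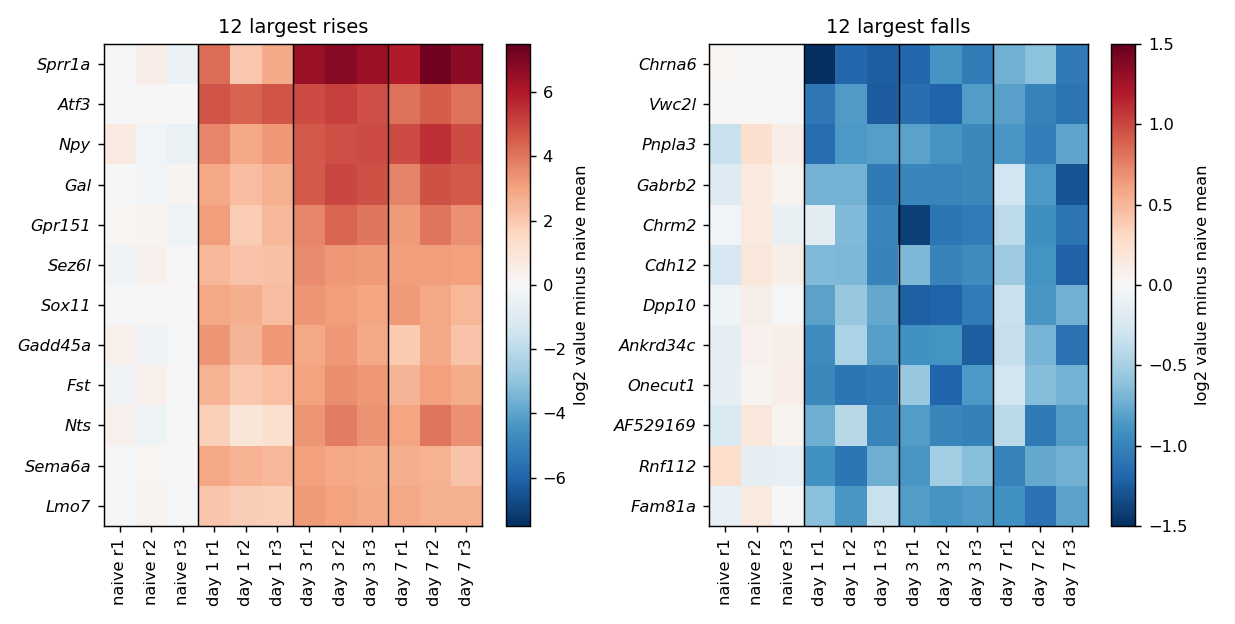
Scaled log2 value of each library minus the naive mean, by library (columns) and gene (lines), for the 12 largest rises (left, colour scale to 7.5) and the 12 largest falls (right, colour scale to 1.5) among annotated genes with separated groups and an average log2 level above 2. Sprr1a and Nts are paler at day 1 than later, while Atf3 and Sema6a are as dark at day 1 as at day 7.

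Of 150 tested genes for the receptors, channels and synaptic proteins by which sensory neurons detect and pass on signals, 36 fell and 4 rose. Over all genes tested 1.90% fell and 3.94% rose. Chrna6 measured 13.3, 11.7 and 11.9 RPKM in naive libraries, 3.48, 4.93 and 5.19 RPKM at day 1, 5.07, 6.70 and 5.89 RPKM at day 3, and 6.63, 8.22 and 6.21 RPKM at day 7. The groups did not overlap, and the lowest library was of day 1. Chrna6 fell by 1.06 on the log2 scale (SE 0.13, adjusted p = 0.000125). Of 26 genes of nociceptor receptors and peptides 8 fell, 1 rose (P2rx3, the ATP receptor of nociceptors, by 0.45, named after its value was seen) and 17 did not pass, with a median of -0.39, where 1.90% of all genes tested fell. All injured libraries lay below naive for 4 of the 26, against 2.71% of all genes. The 8 falls became 7, 3 and 5 when naive replicates 1, 2 and 3 were left out in turn, 12 when day 7 replicate 1 was, and 4 when both libraries rich in muscle transcripts were. Mrgprb5, a Mas-related receptor also named after its value was seen, had the lowest called value at -1.13 (SE 0.22, adjusted p = 0.00724). Its day 7 libraries were at 25.2, 18.6 and 28.9 RPKM, of which only the last came up to the naive range of 28.9 to 33.4 RPKM. After scaling the day 7 and naive libraries overlapped. Reads can be split among Mrgpr genes of similar sequence.

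Of 26 tested neurotransmitter receptor genes 10 fell, 1 rose and 15 did not pass, with a median of -0.38, where 1.90% of all genes tested fell and 3.94% rose. For 10 genes of this list all injured libraries lay below naive, against 2.71% of all genes. The 10 falls became 5 and 6 when naive replicates 2 and 3 were left out in turn, and 6 when both muscle-rich libraries were. Gabrb2, a GABA receptor subunit, stood at 5.37, 6.27 and 6.03 RPKM in naive and 2.32 to 4.34 RPKM (median 2.87) in injured libraries (log2 fold change -0.87, SE 0.18, adjusted p = 0.0076). Its call ended without naive replicate 2 (adjusted p = 0.0614) or naive replicate 3 (0.0542). Chrm2, a muscarinic receptor, stood at 6.50 to 7.61 RPKM in naive and 2.36 to 6.19 RPKM in injured libraries (a difference of -0.86 on the log2 scale, SE 0.18). That call ended without naive replicate 2 (adjusted p = 0.0737) or when both muscle-rich libraries were left out (0.067). Gria2, a glutamate receptor subunit, went from between 15.5 and 17.1 RPKM in naive to between 8.79 and 12.5 RPKM in injured libraries and fell by 0.71 (SE 0.12, adjusted p = 0.00235). The rise in this list was Gabrg1, another GABA receptor subunit, by 0.59, with day 1 libraries at 6.46 to 7.59 RPKM against 6.93 to 8.44 RPKM in naive.

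Of the potassium channel genes that passed, all were lower. Of 34 tested in a list of 37, 11 fell, none rose and 23 did not pass, with a median of -0.30, where 1.90% of all genes tested fell. None passed the test among injured days (4 at an unadjusted p under 0.05, and 1 with voom). Dpp10, an auxiliary subunit of Kv4 channels, measured 50.2, 50.7 and 48.1 RPKM in naive libraries, 27.6, 31.9 and 30.5 RPKM at day 1, 20.7, 22.2 and 24.7 RPKM at day 3, and 36.0, 28.2 and 33.0 RPKM at day 7. All injured values were below all naive values. The log2 fold change was -0.84 (SE 0.11, adjusted p = 0.000261). Kcnh7, a channel of the ether-a-go-go related family, went from between 112 and 124 RPKM in naive to between 58.2 and 96.9 RPKM in injured libraries, where the median was 67.0 RPKM (log2 fold change -0.73, SE 0.14, adjusted p = 0.00444). The count of potassium channels that fell depended on the naive libraries: it was 9, 3 and 3 when naive replicates 1, 2 and 3 were left out in turn, 14 when day 7 replicate 1 was, and 6 when both muscle-rich libraries were.

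Of 13 sodium channel genes 3 fell, where 1.90% of all genes tested fell. Scn1a, the channel Nav1.1, stood at 51.6 to 55.8 RPKM in naive and 28.1 to 40.0 RPKM in injured libraries and fell by 0.72 (SE 0.13, adjusted p = 0.00379). Scn4b, a beta subunit, went from between 25.3 and 27.4 RPKM in naive to between 16.6 and 22.9 RPKM in injured libraries (a difference of -0.46 on the log2 scale, SE 0.09, adjusted p = 0.00455). These 2 and Scn11a were the 3 that fell, with a list median of -0.33. The count was 2 with quantile normalization and 2 with 1 added in place of 0.5. It was 5 without scaling and 7 without day 7 replicate 1. The calls of Scn1a and Scn4b held under all 24 other settings. Among 17 calcium channel genes only Cacna2d1, described above, passed, and Cacng2 had a log2 fold change of -0.55 with an adjusted p of 0.0533. Of 14 mechanoreceptor and proprioceptor genes 2 fell. Etv1, a transcription factor of proprioceptors, went from between 75.4 and 82.0 RPKM in naive to between 41.7 and 63.7 RPKM in injured libraries (a difference of -0.73 on the log2 scale, SE 0.15, adjusted p = 0.00692), a call that ended without naive replicate 3 (adjusted p = 0.0535). The call for Cntnap2, an adhesion protein of the node of Ranvier region, was lost under most settings tried (adjusted p = 0.0456, and 0.0845, 0.184 and 0.198 without naive replicates 1, 2 and 3).

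Of 22 synaptic vesicle genes 3 fell and 1 rose, where 1.90% of all genes tested fell and 3.94% rose. Rab27b, a small GTPase of vesicle secretion, went from between 16.7 and 17.3 RPKM in naive to between 7.01 and 14.6 RPKM in injured libraries and fell by 0.76 (SE 0.13, adjusted p = 0.0021). Syt4, a synaptotagmin, moved the other way, from between 67.3 and 71.9 RPKM in naive to between 95.7 and 127 RPKM in injured libraries, by 0.61 (SE 0.10, adjusted p = 0.00232). Counting each gene once over these 7 lists, 150 of 156 genes were tested, 36 fell, 4 rose and 110 did not pass, with a median of -0.31. Of the 36, 22 had all injured libraries below naive, as did 207 of the 269 genes called lower. These lists too were drawn up with results of these libraries known. The number that fell was 30, 16 and 19 without naive replicates 1, 2 and 3, 52 without day 7 replicate 1, 21 when both muscle-rich libraries were left out and 42 when both that lay apart on the second component were. Ano3, an anoctamin and not a member of these lists, stood at 153 to 162 RPKM in naive and 77.0 to 131 RPKM in injured libraries (a difference of -0.72 on the log2 scale, SE 0.13).

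**Figure D4:**
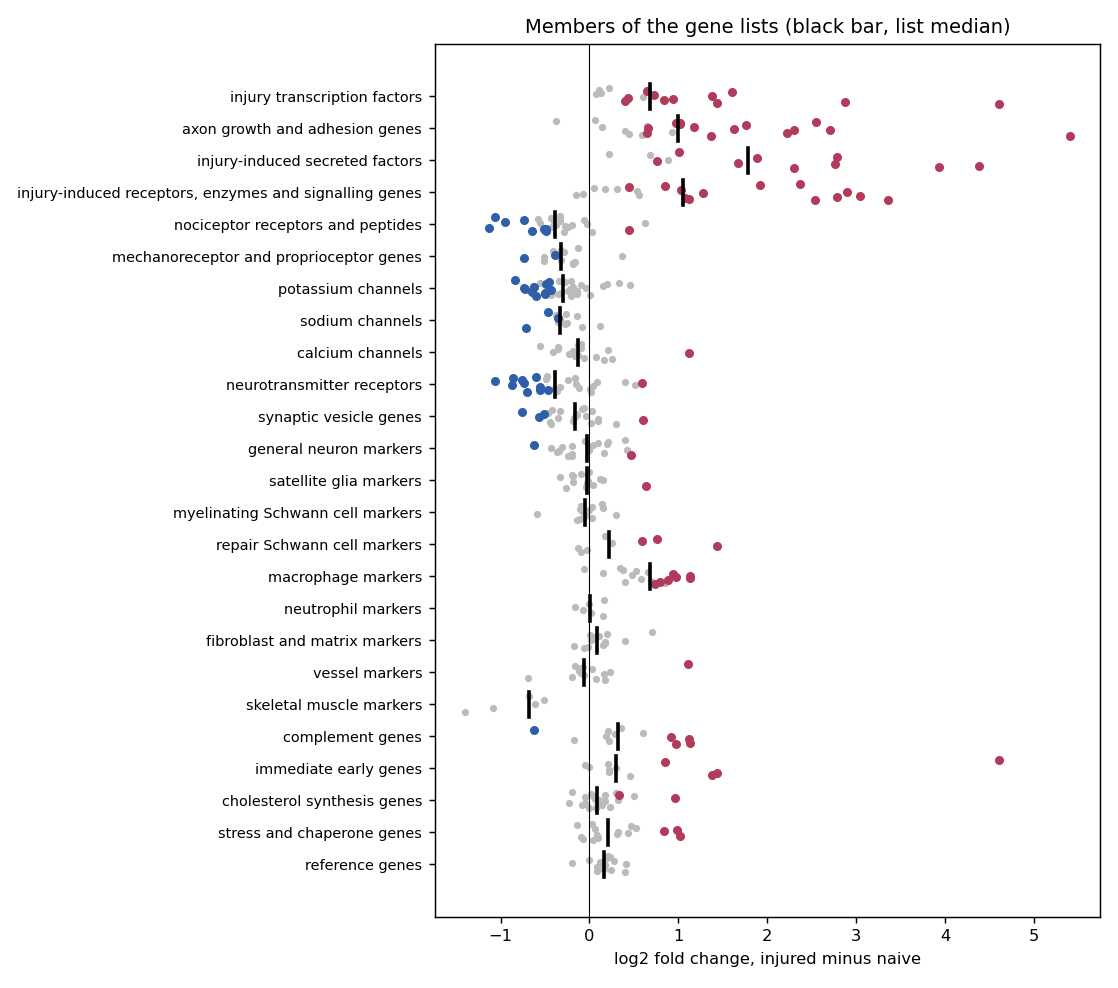
Log2 fold change, injured minus naive, of each tested member of the gene lists with at least 5 tested members; red points are members called higher, blue points members called lower, grey points did not pass, and black bars are list medians. The 4 injury response lists have medians of 0.68 to 1.78, and the lists of receptors, channels and synaptic genes have medians of -0.39 to -0.13.

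Other genes among the largest falls with separated groups differ in what is known of their function. Vwc2l stood at 6.85, 6.26 and 6.30 RPKM in naive and 2.55 to 3.52 RPKM (median 3.03) in injured libraries (log2 fold change -1.03, SE 0.13, adjusted p = 0.00017). Pnpla3, a lipase of lipid droplets, stood at 5.51, 7.68 and 7.11 RPKM in naive and 2.71 to 4.03 RPKM in injured libraries (-0.91, SE 0.14). Cdh12, a cadherin, stood at 8.55 to 10.6 RPKM in naive and 4.33 to 6.01 RPKM in injured libraries (-0.84, SE 0.15). The transcription factor Onecut1, the ubiquitin ligase Rnf112, and Ankrd34c, Fam81a and AF529169 fell by 0.80 to 0.83.

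General neuron markers as a list had a median near naive, at -0.03, though some members were lower in every injured library. Of 20, 1 rose (Elavl3, an RNA-binding protein, by 0.46, SE 0.09), 1 fell (Pou4f2, a transcription factor of sensory neurons, by 0.62, SE 0.15) and 18 did not pass. Over all genes tested 3.94% rose and 1.90% fell. All injured libraries lay below naive for 4 of the 20 and above for 1, against 2.71% and 3.91% of all genes. At an unadjusted p under 0.05 in limma 6 were lower and 2 higher, and with voom 2 were lower and 1 higher. The call for Pou4f2 ended without any 1 of the naive replicates (adjusted p from 0.0926 to 0.103), and that for Elavl3 when both muscle-rich libraries were left out (0.0543).

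Calls among glial, connective tissue and vessel markers are given beside the 3.94% of all genes tested that rose and the 1.90% that fell. Among 14 satellite glia markers Glul, glutamine synthetase, rose by 0.63 (SE 0.13, adjusted p = 0.00994), and the rest did not pass. Its deposited values overlapped, at 13.9 to 19.8 RPKM in naive and 18.0 to 31.9 RPKM in injured libraries, and the call ended without naive replicate 3 (adjusted p = 0.105). None of 15 myelinating Schwann cell markers passed in limma or voom (1 at an unadjusted p under 0.05), with a median of -0.05. Of 8 repair Schwann cell markers 3 rose, which were Jun, Bdnf (by 0.76) and Runx2 (by 0.59). Neurons also express Jun and Bdnf. None of 14 fibroblast and matrix markers passed in limma (1 at an unadjusted p under 0.05, and 1 with voom), with Apod, a lipid carrier, at 0.70 (SE 0.22, adjusted p = 0.0982). Among 14 vessel markers Slc2a1, the glucose transporter of the barrier endothelium, rose by 1.11 (SE 0.13, adjusted p = 0.000125), from between 4.59 and 5.43 RPKM in naive to between 7.27 and 13.6 RPKM in injured libraries, and the other 13 did not pass. Among 4 tested markers of central glia Aldh1l1 rose by 1.09 (SE 0.17), from between 0.77 and 1.26 RPKM in naive to between 1.93 and 3.71 RPKM in injured libraries, and Slc1a2 by 0.67 (SE 0.16), a call lost without any 1 of the naive replicates (adjusted p from 0.0656 to 0.148).

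Some macrophage markers passed the pooled test, but with little difference from naive at day 1. Of 18 tested in a list of 22, 7 rose, none fell and 11 did not pass, where 3.94% of all genes tested rose. The list median was 0.68, yet none of the 18 had all 9 injured libraries above naive, against 3.91% of all genes. The 7 rises became 5, 4 and 3 when naive replicates 1, 2 and 3 were left out in turn, and 3 when both muscle-rich libraries were. Their list median was 0.06 at day 1, 0.85 at day 3 and 1.06 at day 7. Ctss, a lysosomal protease, measured 4.05, 3.33 and 3.10 RPKM in naive libraries, 4.52, 4.03 and 3.81 RPKM at day 1, 7.29, 11.3 and 9.11 RPKM at day 3, and 9.20, 19.3 and 18.2 RPKM at day 7. The day 1 libraries lay in or just above the naive range, and those of days 3 and 7 were above it. The pooled log2 fold change was 1.13 (SE 0.17, adjusted p = 0.000655), the days differed (adjusted p = 0.0064), and day 7 stood above day 1 by 1.70 (95% interval 1.27 to 2.13). Mrc1, the mannose receptor, had 0.12, 1.33 and 1.21 on the 3 days. When the 9 injured libraries were fitted as a single group, so that spread between days counted as error, neither passed (adjusted p = 0.151 for Ctss and 0.152 for Mrc1). Summed levels of the listed macrophage markers were 84.7 to 122 RPKM in naive, 88.5 to 99.2 RPKM at day 1, 122 to 184 RPKM at day 3 and 132 to 235 RPKM at day 7. None of 6 neutrophil markers passed in limma or voom (0 at an unadjusted p under 0.05), and no lymphocyte marker reached the expression filter.

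**Figure D5:**
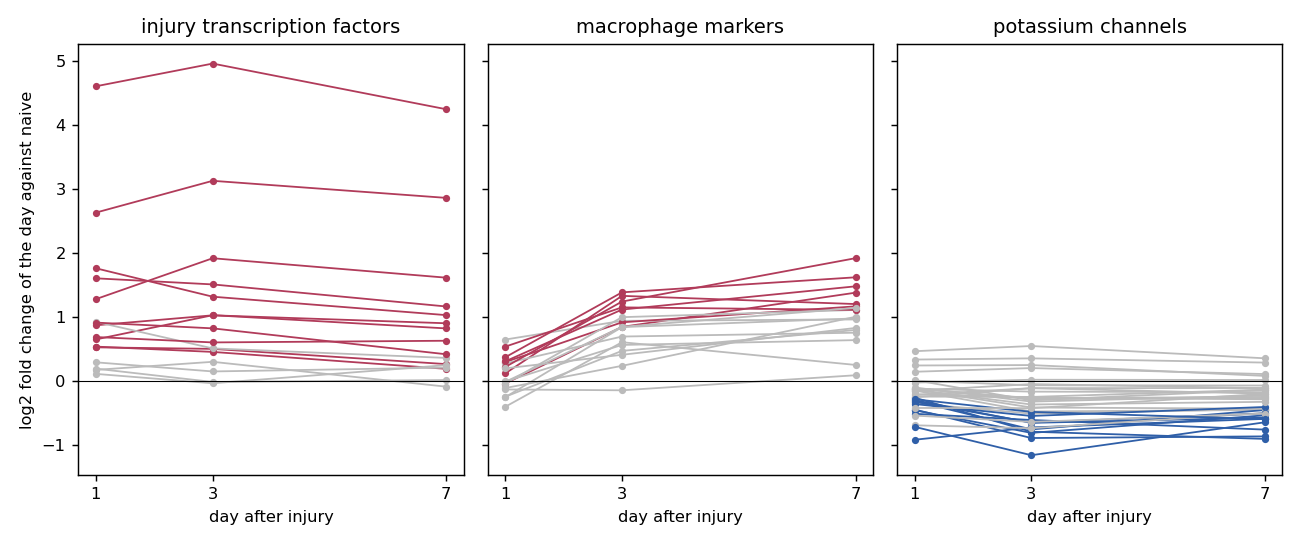
Log2 fold change of each day against naive, by day after injury, for tested members of 3 lists; each line is 1 gene, red if called higher in the pooled comparison, blue if called lower and grey otherwise. Injury transcription factors have a median of 0.78 at day 1 and 0.53 at day 7, macrophage markers have a median of 0.06 at day 1 and 1.06 at day 7, and the called potassium channels lie below 0.

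Among the 828 genes called, 762 did not pass the test for a difference among the 3 injured days and 66 did, of which 63 were higher and 3 lower, among them St6gal2 and Tmem255a, in injured ganglia. Not passing does not show that the days were equal. Day 3 had the largest value for 297 of the 559 higher genes, day 1 for 165 and day 7 for 97, and the median over these genes was 0.67, 0.86 and 0.70 at days 1, 3 and 7. For the 269 lower genes the medians were -0.48, -0.65 and -0.50. Genes picked for the smallest range between days, among those with separated groups and a log2 fold change of at least 0.58 in size, include Khdrbs2, an RNA-binding protein. Khdrbs2 stood at 3.81 to 4.77 RPKM in naive and 6.04 to 7.61 RPKM in injured libraries, and it rose by 0.61 (SE 0.11, adjusted p = 0.00254). Its day values were 0.60, 0.64 and 0.59, with 95% intervals of the differences between days reaching at most 0.33 from 0. Zhx2, Slc37a1, Cers6 and Irak3 rose by 0.58, 0.66, 0.61 and 0.70. The call ended without naive replicate 3 for Zhx2 (adjusted p = 0.0507), without naive replicate 1 or 3 for Slc37a1 (0.0515 and 0.0641), without naive replicate 1 for Cers6 (0.0683) and without any 1 of the 3 for Irak3 (0.0924 to 0.114). In those fits the log2 fold changes were 0.52 for Zhx2, 0.61 in both for Slc37a1, 0.54 for Cers6 and 0.68, 0.69 and 0.72 for Irak3. The 5 falls picked in the same way were Prmt8, Etohi1, Pnpla3, Vwc2l and Cdh12. Prmt8 and Etohi1 had log2 fold changes of -0.66 and -0.59. The call for Prmt8 ended without naive replicate 1 or 3 (adjusted p = 0.11 and 0.0603, at -0.51 and -0.69). That for Etohi1 ended without any 1 of the 3 naive replicates (adjusted p from 0.126 to 0.168, at -0.56 to -0.62).

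At the other end were genes that were near naive at day 1 and high later, chosen for the smallest p of the days test. Neto1, an auxiliary subunit of glutamate receptors, measured 12.2, 13.3 and 12.4 RPKM in naive libraries, 16.6, 12.5 and 13.5 RPKM at day 1, 42.1, 36.8 and 33.5 RPKM at day 3, and 47.4, 46.9 and 34.0 RPKM at day 7. Naive and day 1 libraries overlapped, and the later days stood apart from both. Its pooled log2 fold change of 1.12 (SE 0.14) averages 0.16, 1.5 and 1.68. Ppef1, a calcium-binding phosphatase, was at 37.4 to 45.2 RPKM in naive, 44.9 to 46.2 RPKM at day 1 and 76.9 to 96.8 RPKM at days 3 and 7. Lipn, a lipase, was listed at 0, 0 and 0.70 RPKM in naive libraries, at 0.27 to 1.17 RPKM at day 1 and at 5.94 to 8.34 RPKM afterwards. Anxa1, annexin A1, rose on all days, by 0.83, 2.30 and 2.14. With the 9 libraries fitted as a single group, the pooled calls for Neto1, Ppef1 and Lipn ended (adjusted p = 0.137, 0.121 and 0.0594). Bdnf, a neurotrophin, went the other way, with 1.27, 0.75 and 0.25 on the 3 days and a call that ended in that fit (0.109).

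Of all genes tested 3.94% rose and 1.90% fell, beside which the next lists are given. Of 12 complement genes 4 rose and 1 fell, and 2 rose without naive replicate 2 or 3. C3, the central complement component, rose by 1.12 (SE 0.17, adjusted p = 0.000777), from between 0.82 and 1.14 RPKM in naive to between 1.82 and 4.27 RPKM in injured libraries. C4b rose by 0.92 (SE 0.10, adjusted p = 7.42e-05), from between 4.06 and 4.43 RPKM in naive to between 7.34 and 9.88 RPKM in injured libraries, though C4a, a near-identical neighbour, can take part of its reads. Both had separated groups, unlike C1qb and C1qc, which are also macrophage markers. Cd55, a complement inhibitor named after its value was seen, went from between 184 and 226 RPKM in naive to between 95.5 and 183 RPKM in injured libraries and fell by 0.62 (SE 0.11, adjusted p = 0.00272). Of 11 immediate early genes 4 rose, which were Atf3, Jun, Fosl2 and Dusp1. Of 23 cholesterol synthesis genes 2 rose, among them Hsd17b7 by 0.96 (SE 0.11, adjusted p = 8.17e-05), from between 20.4 and 23.4 RPKM in naive to between 30.5 and 55.4 RPKM in injured libraries. Of 16 stress and chaperone genes 3 rose, among them Hspb1, a small heat shock protein, by 1.01 (SE 0.23, adjusted p = 0.0229), which ended without naive replicate 2 (0.161) or 3 (0.147) and with the replicate block (0.0585), and Trib3, a pseudokinase, by 0.84 (SE 0.19, adjusted p = 0.0147), which ended without naive replicate 1 (0.0866) or 3 (0.0693). A single stress gene passed without any 1 of the naive replicates. None of 16 reference genes passed in limma or voom (2 at an unadjusted p under 0.05), and their median was 0.17. Of the muscle markers 5 were tested and none passed in limma or voom (1 at an unadjusted p under 0.05), with a median of -0.68, and Myh4, a fast myosin, was at 9.75 RPKM in naive replicate 1 and 10.2 RPKM in day 7 replicate 2 against at most 2.59 RPKM elsewhere.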

How the data were processed

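Total RNA of 12 ganglion samples was amplified with a low-input Nugen Ovation kit and made into TruSeq Nano libraries, per the labels' protocols. The submitters' processing notes name the mm10 build and, without roles, STAR, HTSeq, limma, edgeR and bcl2fastq 2.17. Gene annotation and strand setting are not given in the sources, so overlapping and antisense genes cannot be told apart. The authors deposited 1 value per gene, read here as RPKM from the values: each gene's values were multiples of 1 read (tolerance 0.05) for 21091 of 21597 detected genes (97.7%), which also gave the library sizes. Low-input amplification without molecular identifiers means that reads are not independent molecules.

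Of 24060 genes, 14195 reached an RPKM of 1 in 3 or more libraries. Libraries were scaled with unweighted trimmed means of log ratios, and log2(RPKM + 0.5) was fitted with limma 3.58.1 in R 4.3.3 (statmod 1.5.0), with 4 group means, 8 residual degrees of freedom, a variance trend and robust moderation. The contrast was the mean of days 1, 3 and 7 minus naive, and a moderated F test compared the 3 injured days. P-values were two-sided and adjusted by Benjamini-Hochberg over the 14195 genes, with a threshold of 0.05. Whole reads recovered from the deposited values were also tested with voom. The code was tested on simulated data.

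Named genes were Atf3, Sema6a and Csf1, the 12 largest rises and falls with an average log2 value above 2 and separated groups, the 5 largest each way above 5, the 5 steadiest each way, the 6 with the smallest p among days, and the 2 smallest p of each of 29 lists. Predicted genes were left out, exceptions are marked, and some genes are not reported here. Members and lists were chosen with earlier results of these data known. Replicate numbers did not pair the libraries: deviations of same-numbered libraries correlated from -0.34 to 0.234, over 0.1 in 3 of 18 pairs.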

Additional observations from a re-analysis of the deposited data

Results flagged for a closer look

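For several genes described above the size of the change differed among the injured days, by limma's moderated F test with adjustment over all genes. In each case the 3 days share the naive libraries, and the test itself compares injured libraries only. Ppef1, Lipn and Neto1 had an adjusted p of 0.00433 each, and Gal, Nts, Lmo7, Ctss, Mrc1 and Anxa1 of 0.0064 each. The adjusted p was 0.00796 for Sez6l, 0.0115 for Cckbr, 0.0178 for Npy, 0.0214 for Sprr1a and 0.029 for Csf1. In all 14 of these genes the mean at day 1 was below those at days 3 and 7. Adcyap1 (adjusted p = 0.0198) and Bdnf (0.0215) were highest at day 1.

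In the 9 injured libraries a single library stood apart from the rest for 3 of the 84 named genes, by Dixon's ratio of the gap to the nearest library over the whole range. Gria2 was highest in day 7 replicate 1, with a ratio of 0.672. Pnpla2, a triglyceride lipase, was lowest in the same library, with a ratio of 0.507. Myh4 was highest in day 7 replicate 2, with a ratio of 0.616. Chance alone gives such a library in about 1 of 20 groups.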

How the results depend on the processing

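None of the 68 named genes that were called changed direction under any of the 24 other settings. Of genes that were not called, Retnlg (0.17) was at -0.07 without naive replicate 1 and at -0.14 when both muscle-rich libraries were left out, and Camp (-0.16) at 0.06 with array quality weights. Of the 68, 45 kept their call in every setting in which they were tested, and 23 lost it in at least 1. Some genes, such as Cacna2d1 and C3, were tested in 23 of the 24. With 1 library left out at a time, the pooled comparison called 441 to 1173 genes, 341 to 668 higher and 99 to 505 lower, and 552 to 806 genes had all injured libraries above naive and 401 to 814 all below. The days test called 37 to 114 genes. The lowest counts of the pooled comparison came without naive replicate 2 (453) or 3 (441) and the highest without day 7 replicate 1 (1173). Array quality weights gave 2221 genes, 1190 higher and 1031 lower, and 342 among days. With voom on recovered reads 432 genes were lower and 235 differed among days. Without the 2 libraries with muscle transcripts 442 genes were called, 333 higher and 109 lower, with 887 all above, 855 all below and 53 among days. Without the 2 libraries apart on the second component, a setting chosen after seeing the data, 423 were lower, 1092 all above and 1378 all below. Fewer libraries make separation of the groups easier by construction; the cause of the other shifts was not tested. With the replicate number as a block, 668 genes were called, 651 of them shared with the 828, and 66 among days; 4 of 12 libraries correlated best with their own number. Of the named genes discussed above the block ended the calls of Cntnap2 (adjusted p = 0.0618) and Hspb1. With 3 naive libraries, genes near the threshold depend on each of them, and of genes with an average log2 value of 1 or less 3.00% were called, against 8.55% above 6.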

Other observations

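Genes called lower had a median implied gene length of 4038 bases, those called higher 3234 bases and all genes tested 2758 bases, with a length at hand for 96.5% of the genes tested. Ecel1, a membrane metallopeptidase known from injured neurons, was left out of the largest rises by its average log2 value of 1.92. It stood at 0.07, 0.50 and 0.31 RPKM in naive and 2.66 to 8.82 RPKM in injured libraries, and rose by 3.04 (SE 0.20, adjusted p = 3.39e-07), with 2.46, 3.32 and 3.35 at days 1, 3 and 7. Stmn4, a stathmin of the neuronal cytoskeleton, rose by 2.22 (SE 0.20) from between 0.87 and 1.87 RPKM in naive to between 4.73 and 13.8 RPKM in injured libraries. Oprd1, the delta opioid receptor, stood at 2.93 to 4.34 RPKM in naive and 1.18 to 2.45 RPKM in injured libraries and fell by 0.95 (SE 0.19, adjusted p = 0.00714), with all injured libraries below naive. These 3 genes were chosen after their values were seen.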
